A study of Mus musculus with 6 samples.

Results

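The genes described here encode the enzymes that place and remove methyl groups on histones and on protein arginines. They were chosen by name: probe sets of the array that the platform annotation gives to a single gene whose symbol starts with Kmt, Kdm, Setd or Prmt, or is Ezh1, Ezh2, Ehmt1, Ehmt2, Suv39h1, Suv39h2, Dot1l or Nsd1. This rule found 137 of the 45101 probe sets, which read 51 of the 18193 genes that have such a probe set. It used no measured value, but the members were chosen with earlier results of these data known. A probe set is a group of short probes that reads a stretch of a transcript, and the 51 genes had between 1 and 9 of them. Suv39h1 was not analysed here.

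A diet with the label ZnR, also written as a Zn diet, was fed to mice 3, 7 and 11, and the control diet (Ctl) to mice 1, 5 and 9. All 6 mice were 129S1/SvImJ males of 8 to 10 weeks, and all had been trained in fear extinction, where a cue that predicted harm comes repeatedly with no harm. The medial prefrontal cortex of both hemispheres, a frontal brain area with a part in learning and suppressing fear, was taken 2 h after training, and each mouse gave 1 Affymetrix Mouse430_2 array. What the diets contained is not stated in the sources used. Whole tissue was read, so fewer cells of a type and less RNA per cell cannot be told apart. Nor can either be told apart from a different share of neighbouring tissue in the dissected samples.

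Methylation of histone tails marks stretches of chromatin for use or for silence, according to the residue. Methyl groups on lysine 4 and 36 of histone H3 (H3K4, H3K36) lie over active genes, and those on lysine 9 and 27 (H3K9, H3K27) over silent ones. Methyltransferases of the SET domain class add them, amine oxidases and JmjC domain enzymes take them off, and in brain many of these enzymes are tied to learning and to inherited intellectual disability. Protein arginine methyltransferases act on histones and on many RNA-binding proteins.

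None of the enzyme genes passed the test for a difference between ZnR and control mice. Of the 137 probe sets, 97 passed a filter on level (log2 above 4 on at least 3 of the 6 arrays), and these read 50 of the 51 genes. With limma across all 25381 probe sets that passed, 0 of the 97 had a Benjamini-Hochberg adjusted p under 0.05, where 1.47% of all probe sets did. At an unadjusted p under 0.05 there were 10, of which 6 were higher and 4 lower in ZnR mice. That is 10.3% of the 97, against 17.0% of all probe sets, of which 9.06% were higher and 7.90% lower. In 14 of the 97, or 14.4%, the 3 ZnR mice lay wholly above or wholly below the 3 controls, against 23.7% of all probe sets. All ZnR mice were above in 10 of the 14 and below in 4, where 13.1% of all probe sets had them above and 10.6% below. The median difference, ZnR minus control, was 0.03 log2 units over the 97 and 0.02 over all probe sets.

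The filter removed 40 member probe sets, whose values ran from 1.83 to 4.33 log2 units. Of these, 37 were above the level on no array and 3 on 1 or 2 arrays. Among the 97 that passed, 94 were above it on all 6 arrays. The gene lost was Kdm4d, which had a single probe set, at 2.52, 2.72 and 2.53 in ZnR mice and 2.51, 2.84 and 2.54 in control mice. Near the level stood Suv39h2, an H3K9 methyltransferase, which was above it on 4 arrays.

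How large a difference the arrays could have missed is given by the 95% intervals of the fit. From here on a gene stands for the brightest of its measured probe sets, judged by the mean of the 6 arrays. For all 50 genes the interval lay within 2-fold either way, as it did for 96.4% of all 11749 genes represented in this way. For 45 of the 50, or 90.0%, it lay within 1.5-fold either way, against 83.1% of all genes. The other 5 were Ezh2, Kdm5d, Kdm3b, Kdm4b and Prmt6, whose intervals reached past 1.5-fold on one side. Most of the 50 were slightly higher in ZnR mice on average, 35 against 15 lower, which is 70.0% where 57.6% of all genes were higher. At an unadjusted p under 0.05 there were 5 genes of 50, against 18.8% of all genes. In 6 of the 50 the diets did not overlap, with all ZnR mice above each time, where 27.7% of all genes had no overlap and 16.5% had all ZnR mice above. The median difference over the 50 was 0.06, against 0.03 for all genes. The median over the 97 probe sets, 0.03 with all mice, moved when 1 mouse was left out, to 0.0045 when that was ZnR mouse 3, 0.055 when it was ZnR mouse 7 and 0.056 when it was control mouse 1.

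**Figure D1:**
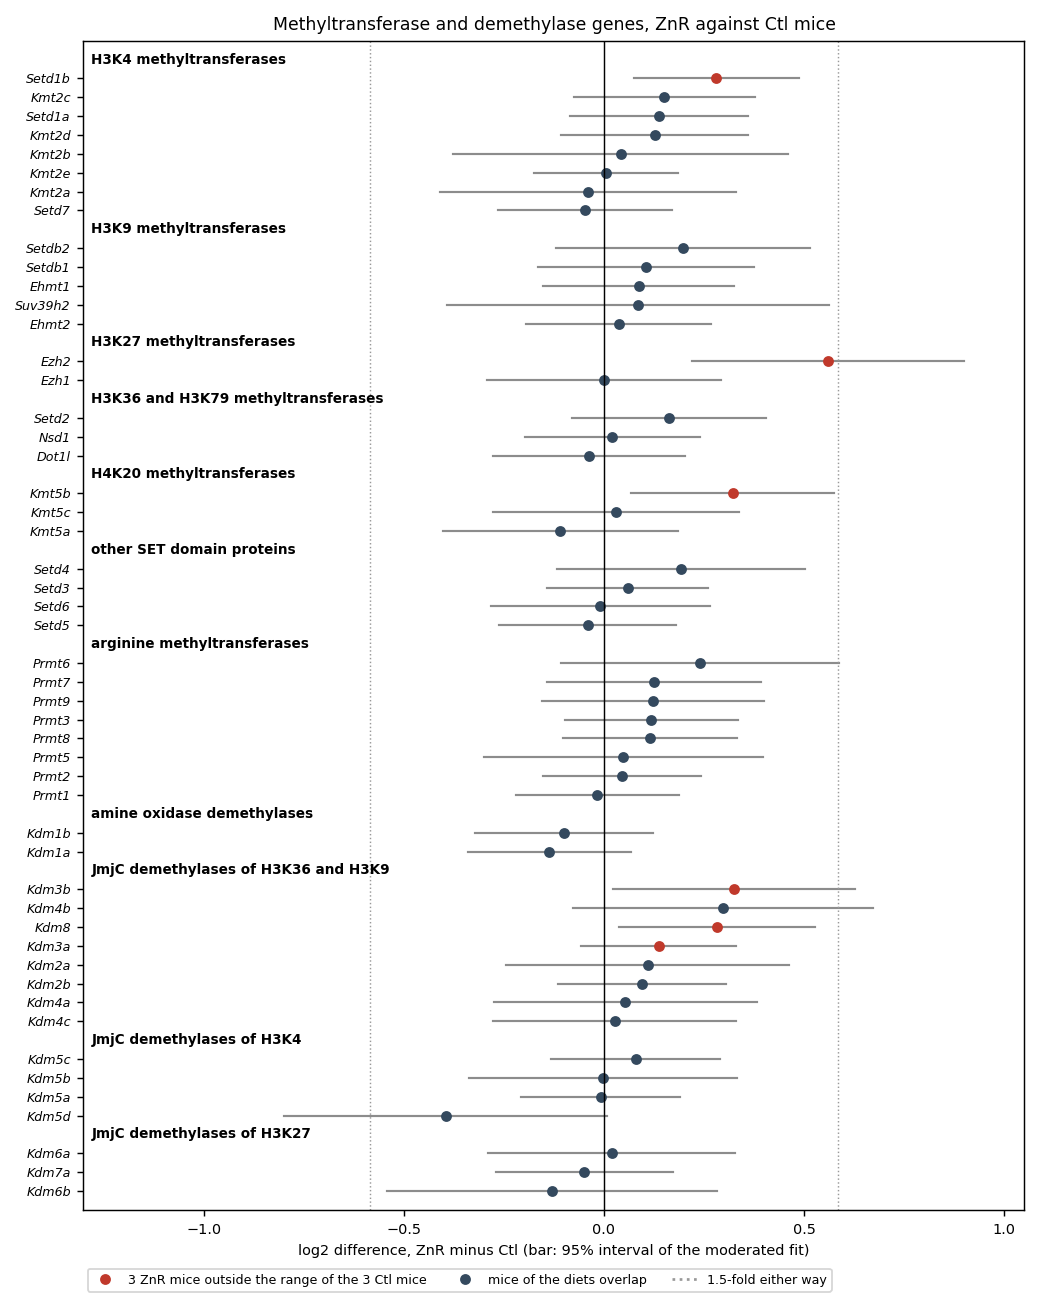
Log2 difference, ZnR minus control, of the 50 measured genes, grouped by role; bars are 95% intervals of the limma fit over 3 mice per diet, and dotted lines mark 1.5-fold. Red points are the 6 genes in which the 3 ZnR mice lay outside the range of the 3 control mice, all of them above it, and 45 of the 50 intervals lie between the dotted lines.

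Among enzymes of H3K27, Ezh2 had the largest difference of all 50 genes. Ezh2 is the catalytic subunit of the polycomb complex PRC2 that prevails in dividing cells. Its values were 6.55, 6.87 and 6.48 log2 units in ZnR mice 3, 7 and 11, against 5.96, 6.32 and 5.94 in control mice 1, 5 and 9. The lowest ZnR mouse stood above the highest control. The difference was 0.56 ± 0.15 log2 units (moderated SE, n = 3 per diet), with a 95% interval from 0.22 to 0.90 log2 units. That is 1.47-fold, and it did not pass (limma adjusted p = 0.113). Leaving out each mouse in turn gave 0.44 to 0.68, and weighting arrays by quality gave 0.34. Ezh1, the catalytic subunit that prevails in cells that no longer divide, measured 7.56, 7.74 and 7.71 in ZnR mice and 7.92, 7.59 and 7.51 in controls. These values overlapped fully, with a difference of -0.0007 ± 0.13, and its 3 measured probe sets lay between -0.0007 and 0.02.

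Markers of dividing cells and of the cells around the ventricle were also higher on average in the ZnR mice. Of all genes, 57.6% were higher on average and 1.92% passed the threshold in either direction. A list of 9 cell cycle genes, chosen after the value of Ezh2 was seen, had 8 measured members, and all 8 were higher on average in ZnR mice (median 0.57), none past the threshold. Their mean level was 6.36, 6.35 and 6.21 in ZnR mice, against 5.49, 5.93 and 5.71 in controls, so the diets did not overlap. One of them, Cdk1, lay below the filter's level of 4 in control mice 1 and 9, at 3.74 and 3.79. It passed the filter through the ZnR mice and control mouse 5. The topoisomerase gene Top2a measured 1.09 ± 0.21 (adjusted p = 0.0533) and Mki67, the gene of the proliferation marker Ki-67, 0.87 ± 0.24 (adjusted p = 0.133). All 9 genes of a young neuron list chosen in the same way were higher on average too, with mean levels of 8.58, 8.69 and 8.58 in ZnR mice and 7.81, 8.31 and 8.28 in controls. The 7 measured markers of ependyma and choroid plexus, tissues of the ventricles, were all higher on average, with mean levels of 5.57, 5.73 and 5.82 in ZnR mice, against 4.09, 4.998 and 4.84 in controls, and 2 of them rose past the threshold. Of the ventricular markers, Tmem212, Foxj1 and Otx2 lay below the level of 4 in control mouse 1, at 3.60, 3.42 and 3.32. Ttr lay below it in ZnR mouse 7 and in control mice 1 and 9. Each passed the filter in part through ZnR mice. Mean levels of oligodendrocyte precursor, astrocyte and striatal medium spiny neuron markers were likewise higher in all 3 ZnR mice than in all 3 controls. The part of any of these cells in the difference of Ezh2 was not tested.

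**Figure D2:**
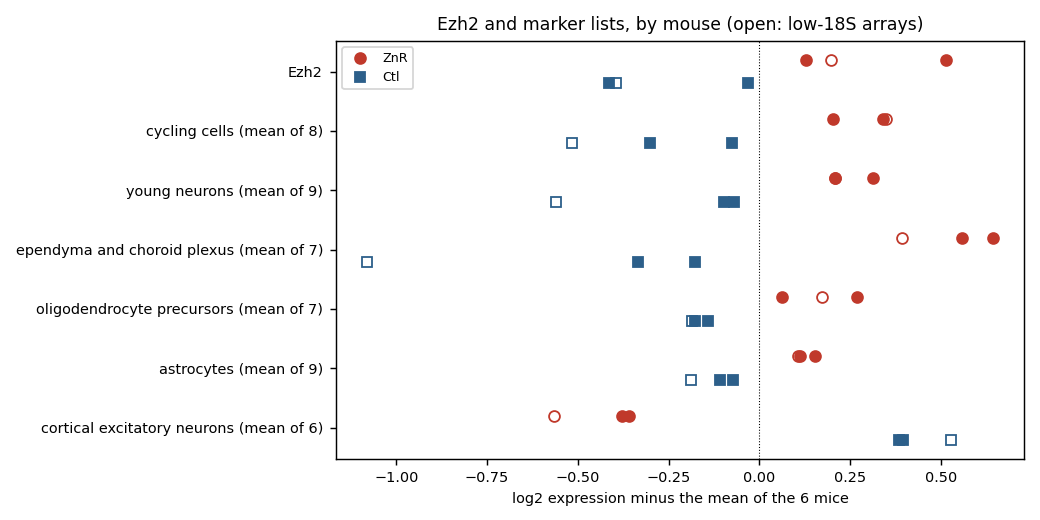
Log2 expression of Ezh2 and the mean of each marker list in each mouse, minus the mean of the 6 mice; red circles are ZnR mice, blue squares are control mice, and open symbols are the arrays with low 18S signal (ZnR mouse 3 and control mouse 1). Ezh2 and the cycling, young neuron, ventricular, oligodendrocyte precursor and astrocyte markers lie higher in all 3 ZnR mice than in all 3 controls. Cortical excitatory neuron markers lie lower.

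Most genes listed as H3K4 methyltransferases encode catalytic subunits of the COMPASS complexes, Setd1a, Setd1b and several MLL proteins among them. Setd7 is a single-subunit enzyme, and Kmt2e is listed as an MLL family member. Of the 8 measured genes, 6 were higher and 2 lower on average, where 57.6% of all genes were higher. Their median was 0.08. Setd1b measured 9.12, 9.01 and 8.93 in ZnR mice, against 8.75, 8.80 and 8.67 in control mice. Every ZnR mouse exceeded every control, by a mean of 0.28 ± 0.09 (adjusted p = 0.167), but the other probe set of Setd1b measured -0.16 ± 0.14, so its direction depends on the probe set. Kmt2c, a subunit of the complexes that mark enhancers, measured 10.08, 10.22 and 10.02 in ZnR mice and 9.84, 10.05 and 9.98 in controls. These overlapped (0.15 ± 0.10, adjusted p = 0.488), and the difference was 0.09 without control mouse 1 and 0.095 without ZnR mouse 7.

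Kmt2a and Kmt2b, the MLL enzymes known for their place in memory formation in mouse forebrain neurons, did not separate by diet. Kmt2a measured 10.74, 10.38 and 10.20 in ZnR mice, against 10.67, 10.47 and 10.31 in control mice, a difference of -0.04 ± 0.16. Kmt2b measured 7.90, 7.62 and 7.69 in ZnR mice, against 8.03, 7.74 and 7.32 in controls, a difference of 0.04 ± 0.18. In both genes the highest values were those of ZnR mouse 3 and control mouse 1, one of each diet. Setd1a (0.14), Kmt2d (0.13), Kmt2e (0.0049) and Setd7 (-0.05) overlapped as well.

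That pair of arrays also stood apart by its ribosomal RNA. The control probe sets for 18S RNA averaged 8.44, 10.9 and 11.5 log2 units in ZnR mice 3, 7 and 11, against 9.09, 11.4 and 12.4 in control mice 1, 5 and 9. In 6 of the 50 enzyme genes both low-18S arrays lay above the other 4, and these were Kmt2a, Kmt2b, Kdm2b, Kdm5b, Kdm5c and Prmt5. Over all genes that was so in 8.80%. In 2 genes, Setdb2 and Kdm1b, both lay below, where 7.98% of all genes did. With the pair as a block in the fit, and without the pair, 0 of the 97 probe sets passed, with 10 and 5 at an unadjusted p under 0.05. The part of the pair in the spread of Kmt2a and Kmt2b was not tested. By mouse, ZnR mouse 3 held the highest value in 15 of the 50 genes, and control mouse 9 the lowest in 15. The same counts were not made over all genes. With the mean of each gene set to 0, the median of ZnR mouse 3 was 0.09 over the 50 and 0.02 over all genes. That of control mouse 9 was -0.06 over the 50 and -0.02 over all genes.

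The H3K9 methyltransferases silence genes and repeats. All 5 measured genes were higher on average, by 0.04 to 0.20, where 57.6% of all genes were, and none passed. Setdb2 measured 4.46, 4.71 and 4.94 in ZnR mice, against 4.36, 4.59 and 4.56 in controls. Setdb1, which silences retroviral repeats together with Trim28, measured 7.77, 7.73 and 7.91 in ZnR mice and 7.89, 7.69 and 7.51 in controls. Both overlapped between diets, with differences of 0.20 ± 0.14 for Setdb2 and 0.10 ± 0.12 for Setdb1. Leaving out 1 mouse moved Setdb2 to between 0.08 and 0.32. Ehmt1 and Ehmt2 form the G9a and GLP enzyme pair that places single and double methyl groups on H3K9. Ehmt1 measured 8.18, 8.27 and 8.39 in ZnR mice and 8.24, 8.29 and 8.04 in controls (0.09 ± 0.10). Ehmt2 measured 10.05, 9.79 and 10.07 in ZnR mice and 9.96, 9.92 and 9.92 in controls (0.04 ± 0.10), and its other probe set measured -0.16 ± 0.21. For the brightest probe sets of this enzyme pair the 95% intervals ran from -0.19 to 0.33. That of the other Ehmt2 probe set ran from -0.65 to 0.33. Suv39h2 measured 0.08 ± 0.20.

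Enzymes of H3K36, H3K79 and H4K20 showed one gene with diets that did not overlap, Kmt5b. Kmt5b, which adds the second and further methyl groups on H4K20, measured 8.79, 8.82 and 8.85 in ZnR mice, against 8.38, 8.71 and 8.40 in controls. Each ZnR mouse lay above each control (0.32 ± 0.11, adjusted p = 0.191). Its other measured probe sets gave 0.28 ± 0.12 and -0.13 ± 0.11, so they do not share a direction. With arrays weighted by quality the difference was 0.16. Kmt5a (-0.11 ± 0.13) and Kmt5c (0.03 ± 0.13), the other enzymes of this residue, overlapped. Setd2, which places the third methyl group on H3K36, measured 8.19, 8.31 and 7.97 in ZnR mice and 8.01, 8.01 and 7.96 in controls (0.16 ± 0.10, adjusted p = 0.483), with 0.09 without ZnR mouse 7 and 0.26 without ZnR mouse 11. Nsd1, another H3K36 enzyme, measured 9.67, 9.66 and 9.76 in ZnR mice and 9.79, 9.68 and 9.55 in controls (0.02 ± 0.09). Neither separated the diets. Dot1l, the H3K79 methyltransferase, measured 6.73, 6.61 and 6.79 in ZnR mice and 6.83, 6.83 and 6.58 in controls (-0.04 ± 0.10), and its other probe set 0.14 ± 0.12. The remaining SET domain genes act mostly on proteins other than histones or are little known. Setd4 measured 5.46, 5.74 and 5.27 in ZnR mice and 5.40, 5.32 and 5.17 in controls (0.19 ± 0.13), with 0.07 without ZnR mouse 7 and 0.30 without ZnR mouse 11. Setd3, an actin histidine methyltransferase, measured 0.06 ± 0.09, Setd6 -0.0092 ± 0.12 and Setd5 -0.04 ± 0.09.

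**Figure D3:**
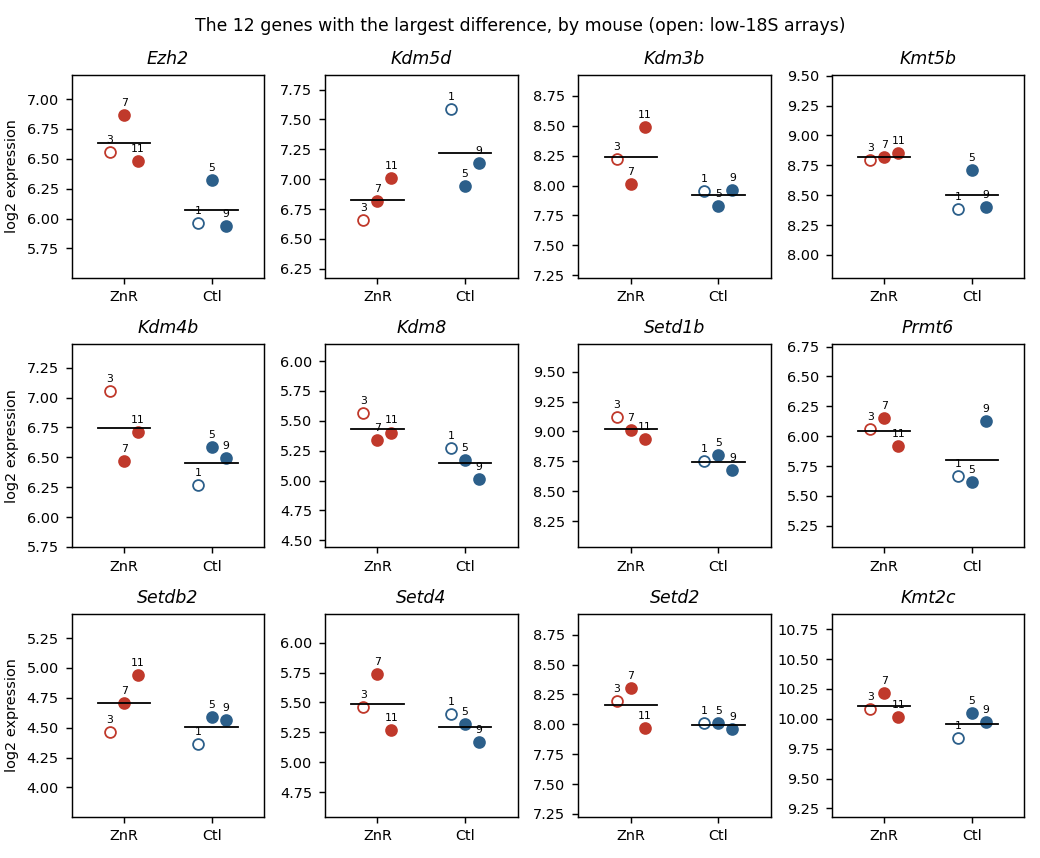
Log2 expression in each mouse for the 12 genes with the largest absolute difference; numbers are mouse numbers, lines are diet means, open circles are the arrays with low 18S signal, and every panel spans the same range on its axis. Ezh2, Kdm3b, Kmt5b, Kdm8 and Setd1b have all 3 ZnR mice above the 3 controls, and the other 7 overlap.

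Of the 8 measured arginine methyltransferases, 7 were higher and 1 lower on average, with a median of 0.12, and none passed. Of all genes, 57.6% were higher on average. Prmt6, a histone H3 arginine enzyme, measured 6.06, 6.15 and 5.92 in ZnR mice, against 5.66, 5.61 and 6.13 in control mice. Control mouse 9 lay among the ZnR values (0.24 ± 0.15, adjusted p = 0.471), and the other probe set of Prmt6 measured 0.22 ± 0.12. The difference was 0.15 without control mouse 5 and 0.40 without control mouse 9. Prmt8, a membrane-bound enzyme found mainly in brain, measured 10.89, 10.67 and 10.87 in ZnR mice and 10.65, 10.68 and 10.76 in controls (0.11 ± 0.09). Prmt1, the chief source of asymmetric dimethylarginine, measured 9.82, 9.69 and 9.62 in ZnR mice and 9.73, 9.69 and 9.75 in controls (-0.02 ± 0.09). Prmt5, the chief source of the symmetric form, measured 9.09, 8.56 and 8.83 in ZnR mice and 8.96, 8.71 and 8.66 in controls (0.05 ± 0.15). These 3 overlapped between the diets. Prmt2, Prmt3, Prmt7 and Prmt9 measured 0.04 to 0.12.

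The demethylases held the largest negative difference. Kdm5d, the H3K4 demethylase gene of the Y chromosome, measured 6.66, 6.82 and 7.01 in ZnR mice, against 7.58, 6.95 and 7.14 in control mice. ZnR mouse 11 lay above control mouse 5, so the diets overlapped, and the difference was -0.39 ± 0.17 (adjusted p = 0.305), or -0.21 without control mouse 1 and -0.16 with arrays weighted by quality. Kdm5c, its counterpart on the X chromosome and an intellectual disability gene in humans, measured 7.36, 7.23 and 7.27 in ZnR mice and 7.32, 7.12 and 7.18 in controls. Its difference was 0.08 ± 0.09. The other sex-linked pair, named after its values were seen, is Kdm6a and Uty, with 0.02 ± 0.13 and -0.18 ± 0.14. The autosomal H3K4 demethylases Kdm5a (-0.0083 ± 0.09) and Kdm5b (-0.0020 ± 0.14) overlapped.

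Of the amine oxidases, Kdm1a, or LSD1, which removes H3K4 methyl groups within the CoREST complex, measured 9.67, 9.86 and 9.76 in ZnR mice, against 9.93, 9.92 and 9.85 in controls. These values just overlapped (-0.14 ± 0.09, adjusted p = 0.485), and its other probe set measured -0.0042 ± 0.13. Without ZnR mouse 3 the difference of Kdm1a was -0.09. Kdm1b measured -0.10 ± 0.10. Kdm6b, an H3K27 demethylase induced by stimulation in many cell types, measured 8.69, 8.35 and 8.39 in ZnR mice and 8.22, 8.81 and 8.79 in controls. Both its highest and its lowest value were in control mice (-0.13 ± 0.18, adjusted p = 0.763). Between the low-18S arrays alone the difference was 0.47, and between the other 4 it was -0.43. Leaving out 1 mouse in turn gave -0.32 to -0.03. Kdm7a measured -0.05 ± 0.10.

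All 8 measured JmjC demethylases of H3K36 and H3K9 were higher on average, by 0.03 to 0.32, where 57.6% of all genes were, and none passed. Kdm3b, an H3K9 demethylase, measured 8.22, 8.01 and 8.49 in ZnR mice, against 7.96, 7.83 and 7.97 in control mice. Kdm8, a JmjC protein first described as an H3K36 demethylase, measured 5.56, 5.34 and 5.40 in ZnR mice, against 5.27, 5.17 and 5.01 in controls. Both genes had every ZnR mouse above every control, with differences of 0.32 ± 0.13 for Kdm3b (adjusted p = 0.265) and 0.28 ± 0.10 for Kdm8 (adjusted p = 0.229). Without ZnR mouse 11 that of Kdm3b was 0.20. Kdm4b, which acts on H3K9 and H3K36, measured 7.06, 6.47 and 6.71 in ZnR mice and 6.27, 6.58 and 6.50 in controls. The diets overlapped, with a difference of 0.30 ± 0.16 in all (adjusted p = 0.402). Between the low-18S arrays alone it was 0.79, and between the other 4 arrays 0.05. Kdm3a, the closest relative of Kdm3b, measured 9.86, 9.75 and 9.84 in ZnR mice, against 9.75, 9.62 and 9.66 in controls (0.14 ± 0.08, adjusted p = 0.458). Its diets stood apart by less than the rounding of these values. Kdm2a, Kdm2b, Kdm4a and Kdm4c measured 0.11, 0.09, 0.05 and 0.03.

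Probe sets of the same gene did not always move together. Of the 27 genes with at least 2 measured probe sets, 15 had differences on both sides of 0 and 12 on one side. The widest span was that of Kdm5a, an H3K4 demethylase. One of its probe sets, 1437106_at, measured 6.21, 6.46 and 6.29 in ZnR mice, against 6.66, 6.86 and 6.64 in control mice. All ZnR mice lay below all controls (-0.40 ± 0.11, adjusted p = 0.115), while its other measured probe sets gave 0.14, -0.04 and -0.0083. With arrays weighted by their quality this probe set passed (-0.52, adjusted p = 0.0203). So did 1441125_at of Setd5 (-0.57, adjusted p = 0.039), which measured -0.38 ± 0.14 with equal weights. No other member passed under any alternative run.

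The probe sets of Kmt2e, an MLL family member, differed as well. Its probe set 1439107_a_at measured 7.61, 7.63 and 7.69 in ZnR mice, against 7.93, 7.84 and 8.02 in controls. These did not overlap (-0.29 ± 0.09, adjusted p = 0.146). The others of Kmt2e gave -0.32 ± 0.14, -0.21 ± 0.10 and 0.0049 ± 0.08, the last being the brightest. Among the 7 measured probe sets of Kdm5c, 6 were higher and 1 lower, from -0.19 to 0.26. Those of Kmt2c ran from -0.14 to 0.23, with 3 higher and 1 lower. By contrast, both of Prmt6 lay within 0.02 of each other and the 3 of Kdm7a between -0.08 and -0.04. Which transcript forms each probe set reads was not analysed here.

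**Figure D4:**
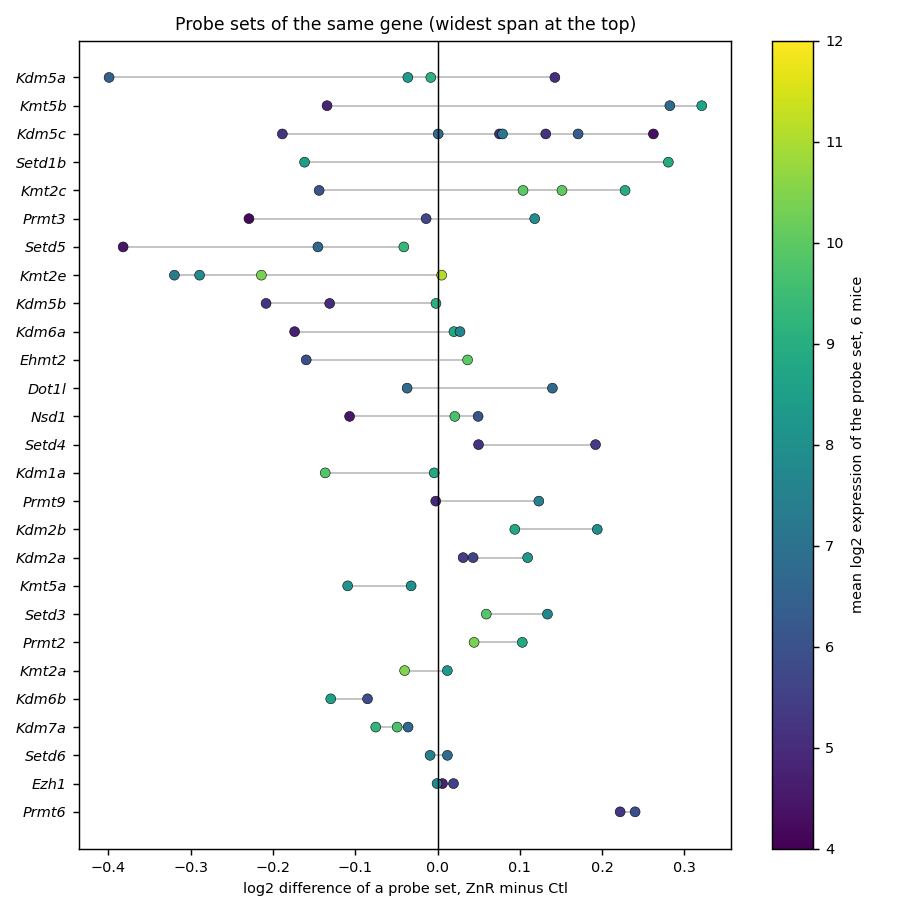
Log2 difference, ZnR minus control, of each measured probe set, for the 27 genes with at least 2, sorted by span; colour gives the probe set's mean log2 expression over 6 mice, which is not comparable between probe sets as an amount of RNA. Of the 27 genes, 15 have probe sets on both sides of 0.

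The enzymes work in complexes, and 78 other genes of these pathways were listed, of which 68 were measured. Of the 68, 1 fell, none rose and the others did not pass, where 1.92% of all genes passed. In 19 of the 68 the diets did not overlap, where 27.7% of all genes had no overlap. The gene that fell was Epop, which encodes a polycomb accessory protein that links PRC2 to elongin. It measured 6.30, 6.51 and 6.10 in ZnR mice, against 7.205, 7.28 and 7.21 in control mice. The gap between the groups was wider than the range within either, and the difference was -0.93 ± 0.11 (limma adjusted p = 0.0214). It passed without ZnR mouse 7 (adjusted p = 0.0302). It did not pass without control mouse 1 (adjusted p = 0.0532), 5 (0.0952) or 9 (0.0546), without ZnR mouse 3 (0.0785) or 11 (0.0673), or without the low-18S pair (0.127), though the difference stayed between -1.03 and -0.83. In the same arrays all 6 measured markers of cortical excitatory neurons were lower on average, by a median of -0.93, and 5 of them fell. Their mean level was 9.39, 9.58 and 9.60 in ZnR mice, against 10.49, 10.4 and 10.3 in controls, and the part of these neurons in the fall of Epop was not tested.

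The other PRC2 subunits measured did not pass. The core subunits Eed (0.09) and Suz12 (0.09), and Aebp2 (0.16 ± 0.11, adjusted p = 0.544; 0.09 without control mouse 9 and 0.27 without control mouse 1), overlapped. Among the 13 genes listed with the COMPASS and MLL complexes, subunits and partners, none passed and 9 were higher on average. Of all genes, 57.6% were higher on average. Ash2l, a core subunit needed for full H3K4 activity, measured 8.56, 8.29 and 8.29 in ZnR mice, against 7.75, 7.73 and 8.01 in controls. The diets did not overlap (0.55 ± 0.12, adjusted p = 0.0731). Bptf, a reader of methylated H3K4, measured 0.14 ± 0.08 (adjusted p = 0.417). The core subunits Wdr5, Rbbp5 and Dpy30 measured 0.11, 0.03 and 0.0053.

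Of the 8 measured partners of LSD1 none passed. On average 4 were higher and 4 lower. In 5 of the 8 the diets did not overlap, where 27.7% of all genes had no overlap. Phf21a, a CoREST subunit that binds unmethylated H3K4, measured 8.41, 8.18 and 8.36 in ZnR mice, against 7.82, 7.89 and 8.11 in controls. Hmg20b, another subunit, measured 4.68, 4.76 and 4.79 in ZnR mice, against 4.19, 4.41 and 4.502 in controls. Neither overlapped between diets, and each measured 0.38 with an SE of 0.11 for Phf21a (adjusted p = 0.143) and 0.10 for Hmg20b (adjusted p = 0.122). Zmym3 (0.19 ± 0.10) also had all ZnR mice above all controls. Rcor2 (-0.29 ± 0.13) and Rcor3 (-0.18 ± 0.08) had all ZnR mice below. Of the 10 partners and readers of H3K9 methylation none passed. Cdyl2, a chromodomain gene, measured 7.56, 7.44 and 7.65 in ZnR mice, against 7.96, 7.95 and 8.12 in controls (-0.46 ± 0.10, adjusted p = 0.0656). Uhrf1, which couples methylated H3K9 to DNA methylation in dividing cells, measured 4.79, 4.49 and 4.42 in ZnR mice, against 3.33, 4.19 and 3.73 in controls (0.81 ± 0.21, adjusted p = 0.113), or 0.49 without the low-18S pair. Uhrf1 lay below the filter's level of 4 in control mice 1 and 9, so it passed through the ZnR mice and control mouse 5. For Cdyl2 and Uhrf1 the diets stood apart, in opposite directions. The cell cycle markers given above were higher on average in the same mice as Uhrf1. Their part in its difference was not tested.

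Of 15 measured methyltransferases and demethylases that carry other names none passed, and 6 were higher and 9 lower on average, between -0.32 and 0.14. Smyd4 measured -0.32 ± 0.10 (adjusted p = 0.167) and Riox1 -0.19 ± 0.10 (adjusted p = 0.372), or -0.29 without the low-18S pair. Of the 6 measured partners of arginine methylation none passed. Btg1, a partner of Prmt1, measured 0.29 ± 0.12 (adjusted p = 0.265) and Coprs, a partner of Prmt5, 0.25 ± 0.11 (adjusted p = 0.314), or 0.17 without control mouse 1. The other Prmt5 partners listed were Wdr77 (-0.09), Clns1a (-0.02) and Riok1 (-0.02). In the supply of the methyl donor, Mat2b, the regulatory subunit of methionine adenosyltransferase, measured -0.17 ± 0.08 (adjusted p = 0.332). Ahcy, which clears the spent donor, measured 0.30 ± 0.14 (adjusted p = 0.341), or 0.15 without ZnR mouse 3 and 0.12 without the low-18S pair.

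**Figure D5:**
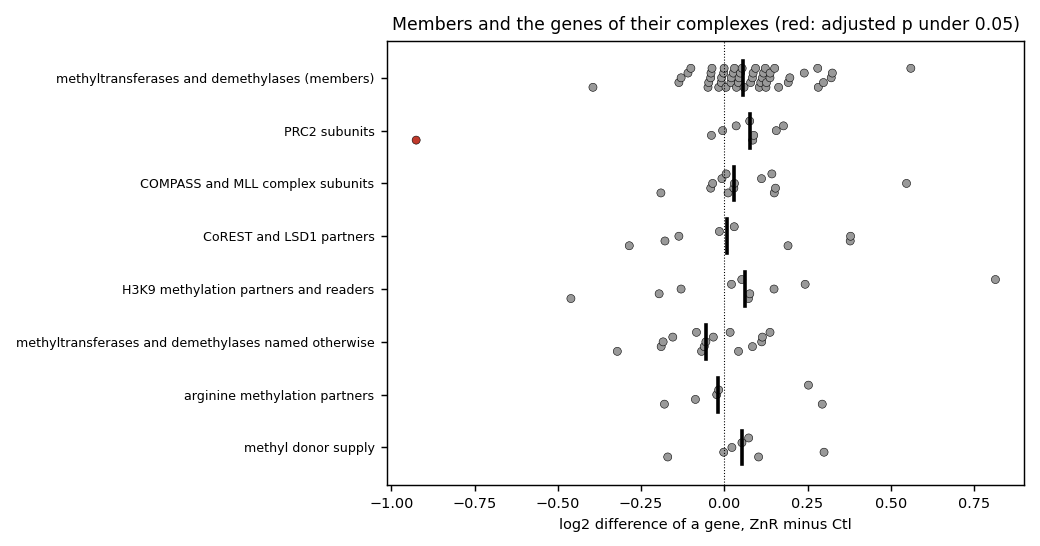
Log2 difference, ZnR minus control, of the 50 enzyme genes and of the genes in 7 lists of their partners; each point is a gene and black bars are medians. Epop, at -0.93, is the only point past an adjusted p of 0.05, drawn in red.

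Markers of other cell types differed between the diets as well. For comparison, 57.6% of all genes were higher on average and 1.92% passed the threshold in either direction. Striatal medium spiny neuron markers, of a region near the cortex, were higher on average in ZnR mice in all 10 measured. Their mean levels were 11.45, 11.2 and 11.3 in ZnR mice, against 11.01, 10.8 and 10.6 in controls. Of these 10, 2 rose. Astrocyte markers were higher on average in 9 of 9, of which 1 rose, and those of oligodendrocytes in 8 of 8, their precursors in 7 of 7 and leptomeningeal fibroblasts in 2 of 2, none past the threshold. Interneuron markers were higher on average in 4 of 7, and 1 fell. Microglia markers were higher on average in 1 of 7 and endothelial markers in 6 of 7, with none past the threshold in either. The part of these cell types in the enzyme genes' differences was not tested.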

How the data were processed

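The authors deposited a log2 value for each probe set in each mouse, from Affymetrix Mouse430_2 arrays hybridised with 500 ng of RNA per sample, per the labels' protocols. The submitters' processing notes name GCRMA 2.28.0 and R 2.15.1, with no further detail. GCRMA corrects background by probe sequence and equalises quantiles between arrays, so a change of total RNA cannot be seen and low values are compressed. Values ran from 0.99 to 14.7 and all 6 columns, and none left over, were used as deposited. The number of arrays limits the precision.

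By Entrez number, all 137 member probe sets were found in a RefSeq gene table of GRCm38.p6, used for names only. Probe sets above 4 log2 units on at least 3 arrays were kept (25381 of 45037 without array controls). The test of ZnR against control was limma 3.58.1 under R 4.3.3 (lmFit, eBayes, 2-sided), adjusted by Benjamini-Hochberg over all 25381, threshold 0.05, with no covariate, since mouse numbers differ between diets. Errors are moderated standard errors, and folds are powers of 2 of the difference. The fit was tested on simulated data. Probe sets whose names end in s_at or x_at can read several transcripts or genes.

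Values of every mouse are given for the 12 genes with the largest difference and for 16 genes fixed by name, of which Suv39h1 was not analysed here. Of each partner list the genes past the threshold and up to 2 with the smallest p are named. The other members, probe sets and partners named, Uty among them, and the cell cycle and young neuron lists were chosen after their values were seen. Members and lists were chosen with earlier results of these data known. Each array is a separate mouse. Tables used Python 3.11.15, pandas 2.3.3 and matplotlib 3.10.9; robust variances used statmod 1.5.0.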

Additional observations from a re-analysis of the deposited data

How the results depend on the processing

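The count of member probe sets past the threshold stayed at 0 with no level filter, a level of 6, renewed quantile normalization, an intensity trend, robust variances, the low-18S pair as a block or left out, genes as the unit, updated symbols, and each mouse left out, and it was 2 with array weights. Counts of members at an unadjusted p under 0.05 were 5 to 16 over these settings. Counts over all probe sets, 373 in the report, were 2003 with array weights, 916 with an intensity trend, 1 without the low-18S pair and 1 to 109 with a mouse left out. Leaving out ZnR mouse 3, 7 or 11 gave 18, 109 or 21, and leaving out control mouse 1, 5 or 9 gave 101, 1 or 77. The 1 partner gene past the threshold became 5 with array weights, 3 with an intensity trend, 2 at a level of 6, 0 without the low-18S pair, and 0 to 1 with a mouse left out. The cause of these shifts was not tested. Signs were followed only in the 26 member genes given by mouse and in the partners chosen by smallest p. Among these, signs of small differences, none past the threshold, turned in 8 genes. Signs of the other member genes were not followed. With the mean of a gene's probe sets Dot1l measured 0.051, Ehmt2 -0.062, Ezh1 0.0082 and Nsd1 -0.012. Ezh1 measured 0.067 with array weights, 0.0056 after renewed quantile normalization and 0.18 without the low-18S pair, and Prmt1 0.0039 with array weights. With a mouse left out, the ranges were -0.12 to 0.012 for Dot1l, -0.013 to 0.12 for Ehmt2, -0.084 to 0.12 for Ezh1 and -0.19 to 0.080 for Kmt2a. They were -0.15 to 0.21 for Kmt2b, -0.042 to 0.081 for Nsd1, -0.072 to 0.028 for Prmt1 and -0.083 to 0.18 for Prmt5. With 3 mice per diet and values compressed near background, small differences of dim probe sets are the least certain. No paired analysis was run because the diets share no mouse number and no label pairs the mice. The block above only sets the low-18S arrays apart from the other 4.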
